A study of Mus musculus with 2 samples.

Results

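The genes described here are 7 synaptic organizers, the C1q-like genes *C1ql1*, *C1ql2* and *C1ql3*, the cerebellins *Cbln1*, *Cbln2* and *Cbln4*, and the receptor gene *Adgrb3*. They were taken by symbol from the 32285 genes of the series. They were measured in hippocampal Cajal-Retzius (CR) cells of mice at postnatal day (P) 14. The control library came from *ΔNp73-Cre; Cic* flox/+*; tdT* mice (conditional heterozygous), and the knockout library came from *ΔNp73-Cre; Cic* flox/flox*; tdT* littermates (conditional knockout). Every animal thus carried the Cre, driven in the *ΔNp73* lineage, the tdT reporter and at least 1 floxed *Cic* allele, and no mouse with 2 unfloxed alleles was sequenced. The tdT-positive, DAPI-negative cells of 4 mice were pooled per library, from 3 males and 1 female in the control and from 2 males and 2 females in the knockout. The list was drawn up with results of these libraries known, and *C1ql1* was proposed for its difference between the genotypes, so its values are given as a description. The 7 genes were thus chosen by measured values, namely the *C1ql1* level by genotype, together with other genes of the same families. The divisions of the cells used below were named along with them.

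C1q-like proteins and cerebellins are small secreted proteins with a C1q domain. They act from the presynaptic side, in the synaptic cleft, as ligands that help to form or keep synapses. C1q-like proteins bind the adhesion receptor encoded by *Adgrb3* (also called BAI3), and cerebellins link presynaptic neurexins to delta-type glutamate receptors. CR cells are early-born, reelin-secreting neurons of the outer cortical and hippocampal layers. CIC, encoded by *Cic*, is a transcriptional repressor, and *Etv4* and *Etv5* are among its best known targets.

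A barcode was taken as a CR cell when it held at least 2000 UMIs (unique molecular identifiers, 1 for each RNA molecule that was captured and read) and at least 5 UMIs of *Reln*. This left 1003 control and 390 knockout cells, with a median of 6224 and 6664 UMIs, and the libraries shared 0 of these barcodes. All 8 CR markers examined (*Reln*, *Trp73*, *Lhx1*, *Lhx5*, *Calb2*, *Nhlh2*, *Cacna2d2* and *Ndnf*) had a UMI in at least 25% of cells of each library. For *Reln* this was fixed in advance, since the cells were chosen by it. *Etv4* stood at 1.97 CPM (UMIs of a gene per 1000000 UMIs) in control cells against 70.9 CPM in knockout cells, and *Etv5* at 15.0 and 70.9 CPM. *Cic* itself stood at 58.9 and 51.3 CPM (ratio 0.871, 95% interval 0.714 to 1.06). These are counts from the 3′ end of the RNA, which need not lie in the deleted part, so they do not check the deletion. By immunostaining at a later age, the paper reports loss of CIC from most, not all, hippocampal CR cells of this knockout line. The 390 knockout cells may therefore include cells that kept CIC. With 1 library per genotype no difference had a replicate check, and no test was made. Each interval is a 95% exact interval that covers counting error only, neither differences between mice nor between preparations. Intervals of levels and ratios treat UMIs as independent, although 1 cell can hold several UMIs of a gene, so they may be too narrow.

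*C1ql1*, the member with the largest difference, lies on chromosome 11 (GRCm38, chr11:102939264-102946688, minus strand). No other annotated gene of the count tables overlaps it. Its last coding exon, including the stop codon, is 180 bases long (chr11:102939733-102939912) and encodes the end of the C1q domain. The same exon of *C1ql2* (chr1:120342395-120342574, plus strand) and *C1ql3* (chr2:13004265-13004444, minus strand) has the same length. The 3 sequences are shown because they let a reader see how far apart the paralogs are, and so whether their UMIs can be told apart. They are from the GENCODE M21 transcripts, 5′ to 3′. Capitals in *C1ql2* and *C1ql3* mark bases that differ from *C1ql1*, and capitals in *C1ql1* mark bases at which either paralog differs.
C1ql1: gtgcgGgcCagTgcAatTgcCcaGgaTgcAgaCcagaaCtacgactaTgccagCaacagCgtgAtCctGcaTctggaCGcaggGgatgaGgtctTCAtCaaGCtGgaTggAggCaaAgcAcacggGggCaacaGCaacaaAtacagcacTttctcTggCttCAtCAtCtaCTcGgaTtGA
C1ql2: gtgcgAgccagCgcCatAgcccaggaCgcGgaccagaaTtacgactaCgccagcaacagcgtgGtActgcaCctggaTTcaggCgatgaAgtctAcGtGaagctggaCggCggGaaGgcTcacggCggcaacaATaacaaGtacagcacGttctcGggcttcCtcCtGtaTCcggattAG
C1ql3: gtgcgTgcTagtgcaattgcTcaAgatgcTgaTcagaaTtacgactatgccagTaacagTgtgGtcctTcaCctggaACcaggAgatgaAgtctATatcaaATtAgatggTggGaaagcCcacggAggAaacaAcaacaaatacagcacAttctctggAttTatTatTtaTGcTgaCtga
*C1ql2* and *C1ql3* each matched *C1ql1* at 144 of these 180 bases, or 80.0%, and *C1ql4* matched it at 150 bases, or 83.3%. Over whole transcripts, the longest run of identical bases that *C1ql1* shared with *C1ql2*, *C1ql3*, *C1ql4*, *Cbln1* or *Cbln4* was 29 bases, with *C1ql4*. In the last 500 bases of the *C1ql1* transcript, near the 3′ end that this assay reads, the longest shared run was 14 bases. *C1ql2* and *C1ql3* shared a run of 38 bases with each other, and at most 11 bases within the last 500 bases of either transcript.

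*C1ql1* is best known as the climbing fiber ligand of the cerebellum. The control cells held 42 *C1ql1* UMIs, or 6.36 CPM (4.59 to 8.60), and the knockout cells held 176 UMIs, or 63.6 CPM (54.6 to 73.8). The level in the knockout library was thus 10.0 times that in the control library (7.11 to 14.4). A *C1ql1* UMI was found in 32 of 1003 control cells (3.19%, 2.19 to 4.47) and in 100 of 390 knockout cells (25.6%, 21.4 to 30.3). With every cell thinned to 2000 UMIs, the expected shares were 1.04% and 9.78%. The libraries also differed in how many molecules single cells held. Of the control cells, 24 had 1 UMI, 6 had 2 and 2 had 3, and no control cell had more. Of the knockout cells, 63 had 1 UMI, 20 had 2, 6 had 3 and 11 had 4 or more, up to 8 in a single cell.

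**Figure D1:**
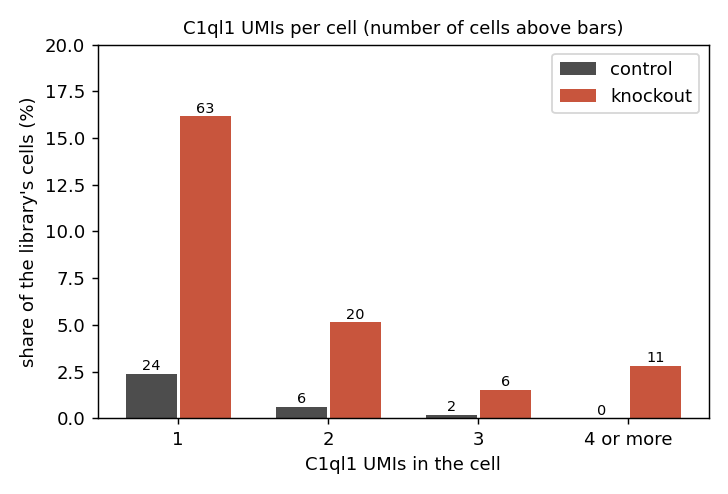
Share of each library's cells (vertical axis, percent) that held 1, 2, 3 or 4 or more *C1ql1* UMIs, in 1003 control cells (grey) and 390 knockout cells (red), with the number of cells above each bar; cells with 0 UMIs (971 control, 290 knockout) are not drawn. The knockout bar is the higher at each number of UMIs, and the 11 cells with 4 or more UMIs were all knockout cells.

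Cells were also divided by sex, read from *Xist* and 4 Y-linked genes. The control held 217 female and 702 male cells and the knockout 175 and 194, and the female control cells came from 1 mouse. In female cells, *C1ql1* stood at 6.41 CPM (9 UMIs) in control and 59.8 CPM (73 UMIs) in knockout cells, a ratio of 9.34 (4.66 to 21.2). In male cells it stood at 6.60 CPM (31 UMIs) and 63.0 CPM (90 UMIs), a ratio of 9.54 (6.28 to 14.8). These 2 ratios were of nearly the same size, and female over male ratios within a library were 0.971 (0.406 to 2.09) and 0.95 (0.688 to 1.31). Both sexes of a genotype were pooled in 1 library, and *C1ql1* was proposed for this same contrast. The division by sex is therefore a description and no replicate check. The difference was also present at each depth. Cells of each library were divided by depth into 3 equal groups. In the group with the fewest UMIs, *C1ql1* stood at 6.49 CPM in control and 50.2 CPM in knockout cells, in the middle group at 5.50 and 65.1 CPM, and in the group with the most UMIs at 6.84 and 68.5 CPM.

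RNA outside cells carried *C1ql1* too. Droplets of 20 to 100 UMIs, which hold free RNA rather than a cell, had a *C1ql1* UMI in 0.172% of 29040 control droplets and 0.352% of 75813 knockout droplets. Their mean depth was 86.3 and 45.5 UMIs. On the CPM scale the droplets stood at 24.3 CPM for the control against 95.1 CPM for the knockout, above the cells of the same library. A cell held on average 22.9 times the *C1ql1* UMIs of a droplet in the control and 118 times in the knockout. Since droplets had the higher CPM, both multiples were below those of all UMIs counted for CPM. They also depend on droplet depth, which was lower in the knockout. Subtracting the mean droplet content from each cell gave a knockout over control ratio of 10.3. Droplets over 100 UMIs were left out of that mean, so it may not stand for free RNA alike in both libraries.

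*C1ql1* is also known from oligodendrocyte precursors, so their markers were examined in the same cells. Of 7 precursor markers, 3 were at 0 in each library, and the summed level was 70.6 CPM in control and 93.6 CPM in knockout cells. *Cspg4* made up most of it, at 60.0 and 77.7 CPM, and *Vcan* came next, at 9.85 and 15.2 CPM. *Olig2* and *Gpr17* were at 0 and *Pdgfra* had 4 and 1 UMIs. In the knockout, the 100 cells with a *C1ql1* UMI had 91.1 CPM of these markers, with 5 of 7 at 0. The 290 cells without one had 94.7 CPM, with 3 of 7 at 0. CR markers summed to 14353 CPM in the cells with *C1ql1* and 13680 CPM in those without. *Reln*, by which the cells were chosen, made up much of this, at 7873 CPM over all knockout cells. The summed precursor list was thus not higher in cells with *C1ql1* than in cells without it. Since *Cspg4* made up most of the sum, it says little about the sparser precursor markers.

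The remaining ligands were sparse. *C1ql2* and *C1ql3*, which are known from dentate granule cells and their mossy fibers, had 15 and 35 UMIs in the control (2.27 and 5.30 CPM) and 4 and 13 UMIs in the knockout (1.45 and 4.70 CPM). The ratio was 0.636 for *C1ql2* (0.154 to 2.00) and 0.887 for *C1ql3* (0.430 to 1.72). A difference of either gene between the libraries was not detectable at this depth. Of the 6 granule cell markers examined in the same cells, *Pdzd2* was at 1398 and 1202 CPM. *Prox1* stood at 6.66 CPM in control and 7.23 CPM in knockout cells, *Tdo2* at 6.82 and 6.15 CPM, *Calb1* at 9.09 and 8.32 CPM, *Dsp* at 7.27 and 14.1 CPM, and *Plk5* at 0.454 and 0.362 CPM. Their part in these counts was not tested. *C1ql2* was found in 11 control and 4 knockout cells (1.10% and 1.03%) and *C1ql3* in 24 and 11 cells (2.39% and 2.82%). *Cbln2* had 1 UMI in the control and 2 in the knockout. *Cbln4* had 1 and 0, and 0 of 390 cells allows a share of cells with a UMI of up to 0.769% (3 counts), which does not limit the share that express it. No fold change is given for these genes.

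*Cbln1*, the cerebellin of cerebellar granule cells, was the other ligand that was higher in the knockout. It had 34 UMIs in the control, or 5.15 CPM (3.57 to 7.20), and 38 UMIs in the knockout, or 13.7 CPM (9.72 to 18.9), a ratio of 2.67 (1.63 to 4.37). It was found in 25 of 1003 control cells (2.49%) and 25 of 390 knockout cells (6.41%). After thinning the shares were 0.795% and 2.20%. In male cells the ratio was 3.58 (1.93 to 6.71), whereas in female cells, with 7 and 12 UMIs, it was 1.97 and its interval of 0.716 to 5.92 held 1. Droplets stood at 14.2 CPM of *Cbln1* for the control against 27.3 CPM for the knockout, in 0.103% and 0.102% of droplets, again above the cells of the same library.

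**Figure D2:**
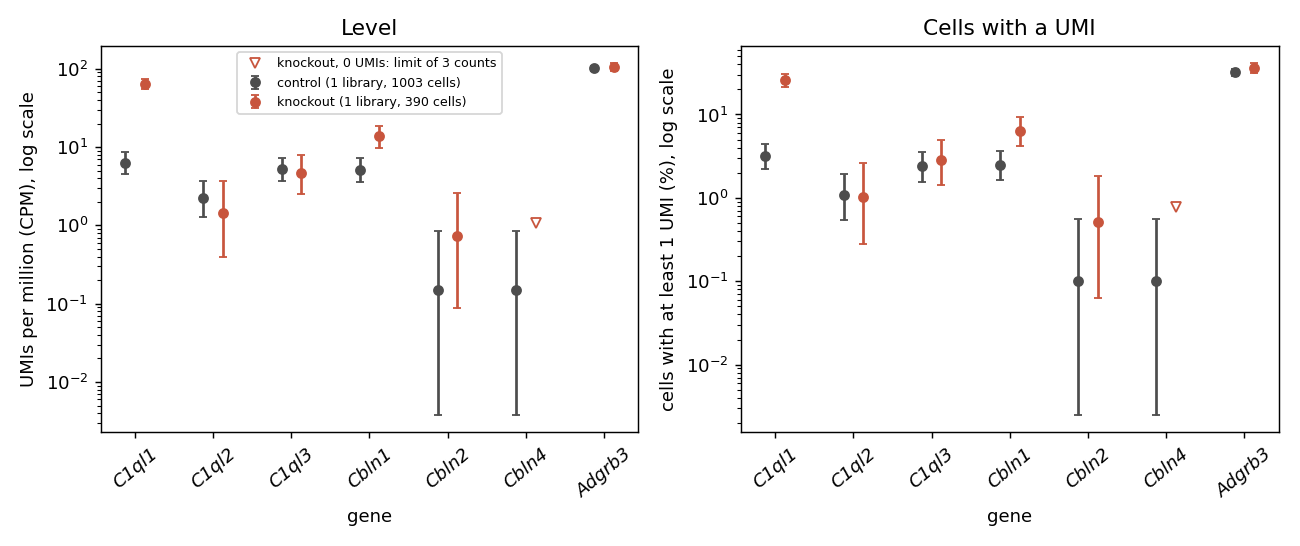
Level in CPM (left, log scale) and percent of cells with at least 1 UMI (right, log scale) of each of the 7 genes in the control library (grey, 1003 cells) and the knockout library (red, 390 cells), with 95% exact intervals for counting error; open triangles mark the limit that 3 counts would give where no UMI was found. Only *C1ql1* and *Cbln1* have intervals that do not overlap between the libraries, and levels should not be read across genes, since capture at the 3′ end differs between transcripts.

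*Adgrb3*, which encodes the receptor of the C1q-like ligands, was the most often detected member. It had 669 UMIs in the control, or 101 CPM (93.8 to 109), and 289 UMIs in the knockout, or 104 CPM (92.8 to 117). The ratio was 1.03 (0.895 to 1.19). A UMI was found in 320 of 1003 control cells (31.9%) and 140 of 390 knockout cells (35.9%), and thinning brought the shares to 15.3% and 15.5%. Droplets stood at 6.88 and 11.2 CPM, far below the cells. The counting interval of the ratio thus leaves out any change of 2 times.

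A gene was called between groups of cells when its levels differed at least 2 times and the interval of the ratio left out 1. This is a rule of size, not a test across samples. Of 13328 genes with at least 20 UMIs, 393 were called between the libraries, or 2.95%, and the 269 that were higher in the knockout were 2.02%. Of the 7 members, 4 had at least 20 UMIs, and *C1ql1* and *Cbln1* were called higher. Since this contrast was used to propose *C1ql1*, nothing is read from that count or from the median of the 4 genes. Their median log2 ratio was 0.73, against 0.02 over all genes tested. The other 2 of the 4, *C1ql3* and *Adgrb3*, had ratios of 0.887 and 1.03.

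The partners of these proteins were examined as a list of 14 genes, of which 12 had at least 20 UMIs. They comprised the remaining family members, delta receptors, neurexins, related adhesion receptors, kainate receptor subunits and netrin receptors. In the knockout, 1 of the 12 was called higher and 0 lower, against 2.95% of all genes tested called in either direction and 2.02% higher. Their median log2 ratio was 0.05, against 0.02 over all genes tested. The list was chosen with earlier results of these data known, so nothing is read from this count. The called gene was *Grik4*, a high-affinity kainate receptor subunit, with 18.9 CPM in control and 43.7 CPM in knockout cells (ratio 2.31, 1.78 to 2.99). Its ratio was 2.30 in female and 2.42 in male cells. *Grik2* stood at 23.6 and 27.1 CPM and *Grik5* at 135 and 141 CPM, with ratios of 1.15 and 1.04 whose intervals held 1.

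The delta receptor gene *Grid1* stood at 70.0 CPM in control and 81.0 CPM in knockout cells (1.16, 0.982 to 1.36). Among the neurexins, *Nrxn3* stood at 236 and 242 CPM, and *Nrxn2* at 281 and 345 CPM (1.23, 1.13 to 1.33). The near equality of *Nrxn3* was found over all cells together, and not within each division of the cells given below. The interval of *Nrxn2* left out 1, at a difference well under the 2-fold limit. The other adhesion receptors of the *Adgrb3* family, *Adgrb1* and *Adgrb2*, had ratios of 1.11 and 0.983. The netrin receptors *Dcc* and *Neo1*, which can bind CBLN4, had ratios of 0.946 and 0.942. *Cbln3* had 2 control and 0 knockout UMIs. *C1ql4* had none.

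**Figure D3:**
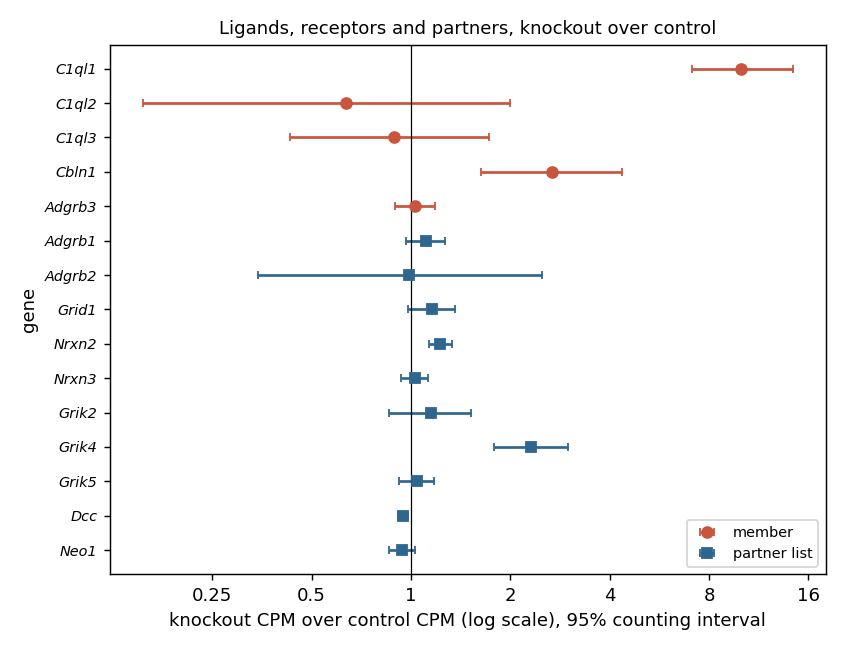
Knockout CPM over control CPM (horizontal axis, log scale) for the members with a ratio (red circles; *Cbln2* and *Cbln4* are left out for too few counts) and for 10 of the partner genes with at least 20 UMIs (blue squares), with 95% exact intervals for counting error. *C1ql1* at 10.0, *Cbln1* at 2.67 and *Grik4* at 2.31 stand to the right of the 2-fold limit, and all other genes drawn lie between 0.636 and 1.23.

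Within the knockout library, *C1ql1* was higher in cells in which *Etv4* or *Etv5* was detected. The 162 cells with a UMI of either gene held 137 *C1ql1* UMIs, or 112 CPM, in 68 cells (42.0%, 34.3 to 50.0). The 228 cells without held 39 UMIs, or 25.4 CPM, in 32 cells (14.0%, 9.80 to 19.2). The ratio was 4.40 (3.06 to 6.45), and 68.0% of the cells with *C1ql1* had a UMI of *Etv4* or *Etv5*. The cells with such a UMI were somewhat deeper, with a median of 7266 against 6210 UMIs. Within cells of 4000 to 8000 UMIs the ratio was 3.23, and thinning gave shares of 16.8% and 4.81%. Across all 10605 genes with at least 20 UMIs in the knockout, 3.1% were called between these cells.

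The *C1ql1* level did not climb steadily with the number of *Etv4* and *Etv5* UMIs. It was 25.4 CPM at 0 UMIs (18 to 34.7), 105 CPM at 1 (78.0 to 139), 90.7 CPM at 2 (57.5 to 136) and 128 CPM at 3 or more (98.7 to 164), with overlapping intervals among the last 3 groups. The 46 cells with *Etv4* alone stood at 127 CPM (93.1 to 170), the 60 cells with both genes at 134 CPM (104 to 170) and the 56 cells with *Etv5* alone at 65.5 CPM (42.0 to 97.5). In female knockout cells *C1ql1* stood at 92.2 CPM with an *Etv4* or *Etv5* UMI and 28.9 CPM without, and in male cells at 119 and 23.9 CPM.

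The control library differed in this respect. Only 87 of its 1003 cells had a UMI of *Etv4* or *Etv5*, mostly of *Etv5* alone (76 cells), and they held 2 *C1ql1* UMIs, both in 1 cell, or 3.00 CPM (0.363 to 10.8). The 916 cells without stood at 6.74 CPM (4.82 to 9.18), a ratio of 0.444 (0.0520 to 1.71). The share of genes called in this comparison was 2.99%. Between the libraries, the knockout over control ratio of *C1ql1* was 37.2 (10.1 to 310) in cells with an *Etv4* or *Etv5* UMI and 3.76 (2.36 to 6.0) in cells without. *C1ql1* was therefore also higher in knockout cells in which neither gene was detected, although a cell without a UMI may still express them. Which of the knockout cells had lost CIC was not measured.

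**Figure D4:**
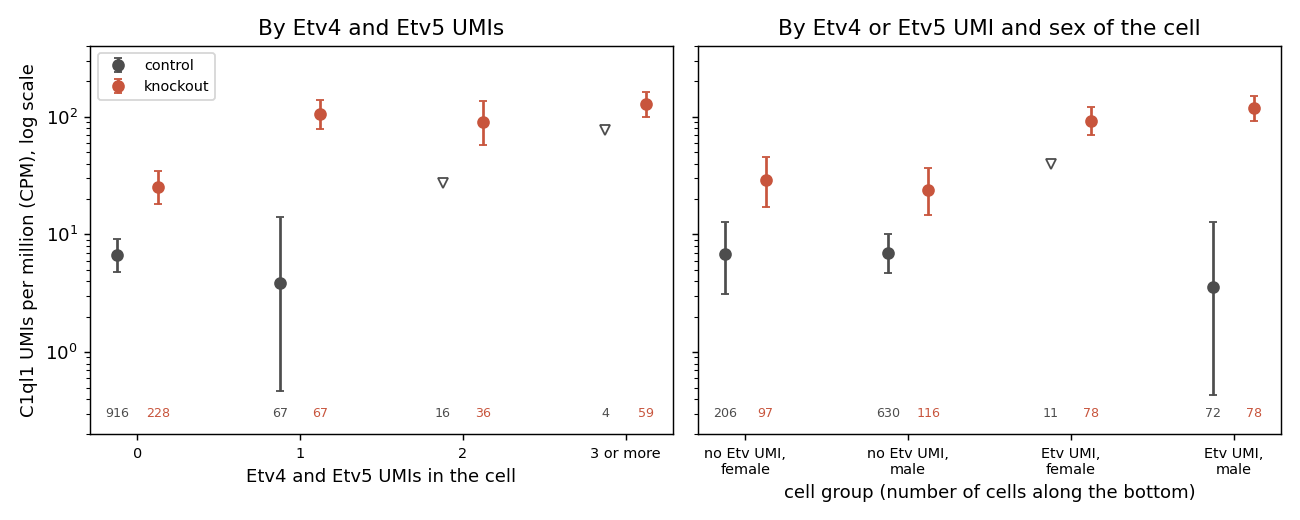
*C1ql1* level in CPM (log scale) in control (grey) and knockout (red) cells, by the number of *Etv4* and *Etv5* UMIs in the cell (left) and by the presence of such a UMI and the sex of the cell (right); bars are 95% exact intervals for counting error, open triangles mark the limit of 3 counts where no *C1ql1* UMI was found, and the numbers along the bottom are cells. Knockout cells stand between 90.7 and 128 CPM at 1 or more *Etv4* and *Etv5* UMIs, against 25.4 CPM at none.

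*Cbln1* followed the same division in the knockout. It stood at 22 CPM in cells with an *Etv4* or *Etv5* UMI (27 UMIs) and 7.15 CPM in cells without (11 UMIs), a ratio of 3.07 (1.48 to 6.86), which was 1.77 within cells of 4000 to 8000 UMIs. In the control the levels were 8.99 and 4.72 CPM (ratio 1.90, 0.645 to 4.69). *C1ql3* had 9 and 4 UMIs in these knockout cells (2.82, 0.786 to 12.5) and *C1ql2* had 0 and 4. The *Adgrb3* level ran the other way, at 86.3 CPM in knockout cells with an *Etv4* or *Etv5* UMI and 119 CPM in cells without (0.725, 0.565 to 0.926). The share of cells with an *Adgrb3* UMI was not lower, at 36.4% and 35.5%, and was 13.8% and 16.8% after thinning. In the control the *Adgrb3* level was 97.4 and 102 CPM. *Grik4* stood at 57.0 and 33.2 CPM (1.72, 1.18 to 2.51) in the knockout. *Nrxn3* stood at 296 and 198 CPM in the knockout (1.49, 1.28 to 1.74) and at 117 and 249 CPM in the control (0.469, 0.369 to 0.590). Its knockout over control ratio was 2.53 (1.98 to 3.27) in cells with an *Etv4* or *Etv5* UMI and 0.797 (0.702 to 0.902) in those without. Single cells held up to 47 control and 56 knockout *Nrxn3* UMIs, so these intervals may be too narrow.

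*Cck*, *Grik1* and the pair *Chst8* and *Alkal2* divided the cells in other ways. A UMI of *Cck*, a neuropeptide gene, was found in 324 control and 110 knockout cells. *C1ql1* was at 6.99 and 6.03 CPM in control cells with and without *Cck* (ratio 1.16, 0.581 to 2.25) and at 76.7 and 58.4 CPM in knockout cells (1.31, 0.947 to 1.81). *Cbln1* was higher in cells with *Cck*. It stood at 10.1 CPM in control cells with *Cck* and 2.55 CPM in those without (ratio 3.94, 1.85 to 8.96), and at 23.9 and 9.64 CPM in the knockout (2.48, 1.24 to 4.94). Both ratios met the call rule, as did 2.95% of all control and 4.44% of all knockout genes. Within cells of 4000 to 8000 UMIs they were 2.06 and 1.25. The knockout over control ratio of *Cbln1* was 2.38 (1.22 to 4.56) in cells with *Cck* and 3.78 (1.71 to 8.80) in cells without. *C1ql2* was found in cells without *Cck* only, with 15 control and 4 knockout UMIs. With the limit of 3 counts in cells with *Cck*, its ratio was at most 0.377 in the control and at most 1.86 in the knockout. The knockout counts thus allow an equal or higher level in cells with *Cck*. *Nrxn3* was lower in cells with *Cck*, at 91.8 against 312 CPM in the control and 72.9 against 310 CPM in the knockout.

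*Grik1*, which encodes the kainate receptor subunit GluK1, had a UMI in 194 control and 70 knockout cells. *Adgrb3* stood at 152 CPM in control cells with *Grik1* and 88.1 CPM in those without (1.72, 1.46 to 2.03), and at 114 and 102 CPM in the knockout (1.11, 0.824 to 1.48). The intervals of these 2 ratios overlap, and their difference was not tested. *C1ql1* was at 98.8 CPM in knockout cells with *Grik1* and 55.2 CPM in those without (1.79, 1.27 to 2.49), and at 7.98 and 5.93 CPM in the control. *C1ql2* had 7 UMIs in control cells with *Grik1* and 8 in those without (3.32, 1.02 to 10.5), under the minimum of 20 UMIs for a call, and 1 and 3 UMIs in the knockout. *C1ql3* had 11 and 24 control UMIs (1.74, 0.768 to 3.68). The knockout over control ratio of *Nrxn3* was 0.518 (0.409 to 0.651) in cells with *Grik1* and 1.22 (1.11 to 1.36) in those without. Of the members with at least 20 UMIs in a library, none met the call rule by *Grik1*, against 3.53% of all genes within the control library and 3.7% within the knockout library.

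A UMI of *Chst8*, a sulfotransferase gene, or *Alkal2*, a ligand gene of ALK-family receptors, was found in 232 control and 91 knockout cells. These cells held less *C1ql1*. In the control, 3 UMIs (1.84 CPM) stood against 39 UMIs (7.85 CPM) in the other cells, a ratio of 0.234 (0.0462 to 0.735). This control ratio was 0.362 within cells of 4000 to 8000 UMIs, from 2 and 19 UMIs. It was 0.404, from 3 and 22 UMIs, without the cells rich in respiratory transcripts described below. In the knockout the levels were 43.5 and 71.2 CPM (0.610, 0.405 to 0.896), although the cells with *Chst8* or *Alkal2* were the deeper ones, with medians of 7869 and 6361 UMIs. Within cells of 4000 to 8000 UMIs the knockout ratio was 1.16, from 17 and 66 UMIs, so the lower level was not seen there. Whether depth or counting error made this change was not tested. *Cbln1* had 3 UMIs in control cells with *Chst8* or *Alkal2* and 31 in the others, or 1.84 against 6.24 CPM (0.294, 0.0575 to 0.943). This control ratio was 0.573 within cells of 4000 to 8000 UMIs, from 2 and 12 UMIs. It was 0.456 without the cells rich in respiratory transcripts, and 0.681 with at least 2 UMIs of the class gene. In the knockout *Cbln1* stood at 10.5 and 14.9 CPM. Of all genes, 2.84% met the call rule among control cells and 3.93% among knockout cells. *C1ql1* was higher in the knockout library in every one of these classes. It was so by 11 (6.24 to 20.4) and 9.68 times (6.28 to 15.4) in cells with and without *Cck*. By *Grik1* the ratios were 12.4 (6.39 to 26.3) and 9.30 (6.23 to 14.3). By *Chst8* or *Alkal2* they were 23.7 (7.43 to 121), from only 3 control UMIs, and 9.07 (6.33 to 13.3), with overlapping intervals. *C1ql1* was proposed for this contrast, so these ratios are a description.

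**Figure D5:**
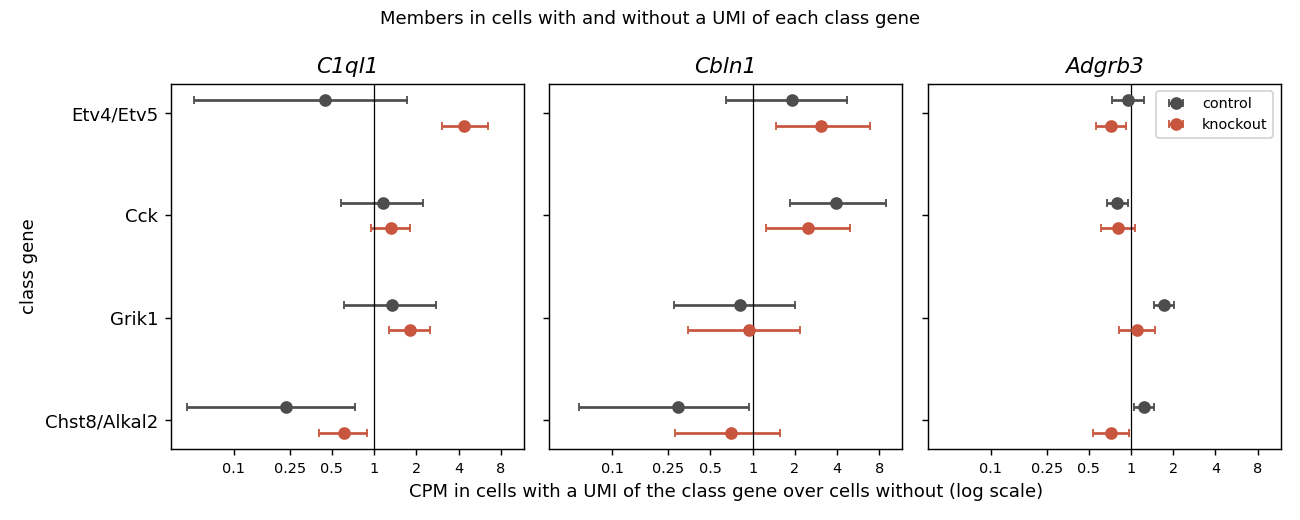
Ratio of the level in cells with a UMI of each class gene to that in cells without (horizontal axis, log scale) for *C1ql1*, *Cbln1* and *Adgrb3* in the control (grey) and the knockout (red), with 95% exact intervals for counting error and a line at 1. *C1ql1* lies furthest to the right by *Etv4* and *Etv5* in the knockout (4.40) and *Cbln1* by *Cck* in the control (3.94), whereas *Adgrb3* stays between 0.722 and 1.72.

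Some cells held UMIs of both ligand and receptor. Of 100 knockout cells with *C1ql1*, 47 also had an *Adgrb3* UMI, as did 18 of 32 control cells. Among the cells without *C1ql1*, 32.1% in the knockout and 31.1% in the control had one. The cells with *C1ql1* were deeper, with a median of 7438.5 against 6327.5 UMIs in the knockout and 7055 against 6199 UMIs in the control. Thinned to 2000 UMIs, the shares with *Adgrb3* were 17.4% and 14.9% in the knockout and 26.6% and 14.9% in the control. *Adgrb3* stood at 118 CPM in knockout cells with *C1ql1* and 98.8 CPM in those without (1.20, 0.927 to 1.54), and at 168 and 98.4 CPM in the control (1.71, 1.24 to 2.31). Counting any of the 6 ligands, 91 control and 122 knockout cells had a ligand UMI, 38 and 54 of them with *Adgrb3*, and 3 and 20 cells had UMIs of 2 or more ligands. The 6 include the cerebellins, which bind neurexins and delta receptors, so these are not counts of ligand and receptor pairs. They were not set to equal depth. *Cbln1* was concentrated in knockout cells with *C1ql1*, which held 26 of its 38 UMIs, or 32.0 CPM against 6.14 CPM in the other cells (5.21, 2.54 to 11.3). *Grik4* stood at 75.1 and 30.7 CPM in the same cells (2.45, 1.68 to 3.55) and *Grid1* was higher in them by 1.74 times (1.32 to 2.29). Other partner genes ran the other way there, with ratios of 0.644 for *Nrxn3* (0.531 to 0.776) and 0.799 for *Neo1* (0.667 to 0.953). In the control, cells with *C1ql1* held 3 of 34 *Cbln1* UMIs (2.24, 0.438 to 7.19), and *Grik4* had a ratio of 1.17 (0.420 to 2.62) and *Grid1* one of 1.67 (1.12 to 2.40). The control ratios of *Nrxn3* and *Neo1* were 1.01 (0.776 to 1.30) and 0.990 (0.768 to 1.26). Whether these ratios differ between the libraries was not tested. In droplets, *C1ql1* and *Cbln1* both stood at a higher CPM than in cells of the same library. The part of free RNA in their joint detection was not tested.

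Cells in which nuclear genes of oxidative phosphorylation made up at least 1.5% of UMIs (102 control and 41 knockout cells) were deeper than the rest, with a median of 13182 against 6065 UMIs in the control. In the control they held more *Cbln1*, at 17.8 against 2.71 CPM (6.59, 3.17 to 13.9), more *C1ql1*, at 16 against 4.52 CPM (3.54, 1.79 to 6.81), and less *Adgrb3*, at 47.9 against 112 CPM (0.429, 0.316 to 0.571). In the knockout *C1ql1* stood at 63.7 and 63.6 CPM, *Cbln1* at 19.1 and 12.6 CPM and *Adgrb3* at 72.2 and 111 CPM. Without these cells the knockout over control ratio was 14.1 for *C1ql1* and 4.66 for *Cbln1*.

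Likeness of pattern was measured by Pearson's r of log2(CPM + 10) over 8 groups of cells, formed by library, *Etv4* or *Etv5* UMI and *Cck* UMI (33 to 625 cells each), for 9438 genes with at least 100 UMIs. The groups share 2 libraries, so r is a description. *C1ql1* ran from 0.00 CPM in control cells with *Etv4* or *Etv5* but no *Cck* to 121 CPM in knockout cells with both. The 0.00 CPM was a count of 0 in 54 cells, which does not set them below the other control groups (6.60 to 7.01 CPM). The most like genes were *Sparc*, a matricellular glycoprotein (r = 0.976), *Gnas*, the stimulatory G protein alpha subunit (0.974), and *Alk*, a receptor tyrosine kinase (0.972). *Sparc* stood at 48.8 CPM in control and 100 CPM in knockout cells, *Gnas* at 879 and 1088 CPM, and *Alk* at 9.39 and 36.5 CPM. *Adgrb3* ran from 75.6 to 129 CPM, and was most like *Apmap* (0.965), *Zfp804b* (0.956) and *Cntfr* (0.943).

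The genes nearest to *C1ql1* on chromosome 11 were mostly sparse. Of the 3 nearest on the side of lower coordinates, *Kif18b* had 0 control and 1 knockout UMIs, *Fam187a* had none, and *Gfap*, the astrocyte filament gene, had 2 and 6 (ratio 7.16, 1.28 to 72.5, under the minimum of 20 UMIs). On the side of higher coordinates, *2410004I01Rik* had 6 and 1 UMIs, *Dcakd* stood at 21.4 and 24.9 CPM (1.17, 0.863 to 1.57) and *Nmt1* at 120 and 124 CPM (1.03, 0.904 to 1.17). Within 1 Mb on each side, 31 other genes had at least 20 UMIs and 0 of them met the call rule, against 2.95% of all genes, a share at which few or none of so small a number would be called. *Etv4* lies on the same chromosome, 1.15 Mb away (chr11:101769742-101785371).

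Promoters, from 250 bases before to 50 bases after the start listed there, were present for 4 members in the RefSeq table of GRCm38.p6. They were searched on both strands for the CIC octamers TGAATGAA, TCAATGAA, TGAATGGA and TCAATGGA. The *Adgrb3* promoter held 1 match and those of *C1ql2*, *C1ql3* and *Cbln4* held 0, against 3.84% of 32851 promoters with a match. Both promoters listed for *Etv5*, a known target of CIC, held 0 matches as well. The *C1ql3* window (chr2:13010815-13011114) lies inside the gene as annotated in GENCODE M21 (chr2:13003457-13011806), so it does not cover the start of that annotation. The genes *C1ql1*, *Cbln1* and *Cbln2* had no entry.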

How the data were processed

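Sorted tdT-positive hippocampal cells were sequenced as 10x 3′ libraries, 1 per genotype. The authors deposited raw UMI counts per gene and barcode, without normalization or cell calling (16336796 UMIs in the control and 6777071 in the knockout matrix). The paper's methods name a Cell Ranger count pipeline with an mm10 reference, the matrix headers name Cell Ranger 4, and the submitters' processing notes name Cell Ranger 8.0.1 and mm39. Of 32285 gene identifiers, 32158 matched GENCODE M21 (GRCm38), which gave all gene positions here. Whether intronic reads were counted is not given in the sources used here.

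UMIs were summed over cells and divided by the UMIs outside 192 genes whose symbols begin with mt-, Rpl, Rps or Mrp (6601724 control and 2765943 knockout UMIs), times 1000000 (CPM). Shares have exact Clopper-Pearson intervals, levels exact Poisson intervals and ratios exact conditional intervals, at 95%. A count of 0 was given the limit of 3 counts. Female cells had at least 3 *Xist* UMIs and no Y-linked UMI. Male cells had any Y-linked UMI and no *Xist* UMI. By these rules 84 control and 21 knockout cells were given no sex. Doublets were not called. Further marker lists (oligodendrocyte, astrocyte, granule, pyramidal and GABAergic neuron, microglia, endothelial, ependymal or choroid) were summed in the same cells. For control and knockout in turn, the sums were 16.1 and 21.7 CPM for oligodendrocytes, 105 and 88.9 CPM for astrocytes, 1429 and 1238 CPM for granule neurons, 66.6 and 80.6 CPM for pyramidal neurons, 1.06 and 0.723 CPM for GABAergic neurons, 36.5 and 32.2 CPM for microglia, 34.2 and 29.3 CPM for endothelial cells and 5.15 and 6.51 CPM for ependymal or choroid cells. *Pdzd2* made up most of the granule list, at 1398 and 1202 CPM.

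The members, partner list and classes were chosen with earlier results of these data known. The genes named were the members, the partner list, the class genes, *Cic*, *Reln* and *Trp73*, the 3 genes most like each member with at least 100 UMIs, and the 3 nearest genes on each side of *C1ql1*. Some genes of the partner list are counted in its totals and not reported singly here. Alternatives changed the cell limits, depth, scaling, positivity, free RNA, sex and single cells. Intervals and calls were tested on simulated Poisson counts, for genes with at least 100 UMIs. Such counts do not cluster within cells, so this cannot show how the intervals hold for real or sparser genes. Python 3.11.15, numpy 2.4.6, scipy 1.17.1 and pandas 2.3.3 were used.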

Additional observations from a re-analysis of the deposited data

Results flagged for a closer look

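RNA outside the cells carried a difference between the libraries. In droplets of 20 to 100 UMIs, *C1ql1* was 3.91 times higher in the knockout (53 and 289 UMIs, 2.91 to 5.34) and *Cbln1* 1.92 times (31 and 83 UMIs, 1.26 to 3.00). In barcodes of 500 to 1999 UMIs, which were not counted as cells, *C1ql1* had 1 UMI in 191 control barcodes and 4 UMIs in 51 knockout barcodes, a ratio of 14.7 (1.45 to 724). The part of free RNA in the values of cells was estimated by subtracting the mean content of droplets of 20 to 100 UMIs. This gave a ratio of 10.3 for *C1ql1* and 2.71 for *Cbln1*. Droplets over 100 UMIs were left out of that mean, so it may not stand for free RNA alike in both libraries.

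In barcodes of at least 2000 UMIs with under 5 *Reln* UMIs, *Adgrb3* was 5.82 times higher in the knockout (1.35 to 52.4), from 2 UMIs in 8 control barcodes and 15 UMIs in 16 knockout barcodes. A single knockout barcode held 7 of the 15.

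*Adgrb3* differed in opposite directions by *Chst8* or *Alkal2*. Its level in cells with a UMI of either gene was 1.24 times that in the other cells in the control (1.04 to 1.47), and 0.722 times in the knockout (0.536 to 0.961). The difference between the libraries was not tested.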

How the results depend on the processing

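Each genotype had 1 library, so no replicate could be left out and no paired analysis was possible. Of 205 values recomputed under the alternatives, 186 moved by less than their counting interval, 19 moved by more and 0 of the called ratios changed direction. The *C1ql1* ratio of knockout to control ran from 9.34 in female cells to 14.1 without cells rich in respiratory transcripts, and that of *Cbln1* from 1.97 in female cells to 4.66 without those cells. Thinning to 2000 UMIs brought the shares of control and knockout cells to 1.04% and 9.78% for *C1ql1*, 0.857% and 0.934% for *C1ql3*, 0.795% and 2.20% for *Cbln1*, 15.3% and 15.5% for *Adgrb3*, and the control share of *C1ql2* to 0.368%, since fewer UMIs are kept. With at least 2 UMIs of the class gene, which moves cells with 1 UMI into the negative group, the *Etv4* or *Etv5* ratio in the knockout was 2.61 for *C1ql1* and 1.23 for *Cbln1*. In the control the *Grik1* ratio was then 0.527 for *C1ql2* (3.32 at 1 UMI) and 0.692 for *C1ql3* (1.74), and the *Chst8* or *Alkal2* ratio of *C1ql3* was 0.427 (1.22), each from 1 to 3 UMIs in the positive cells. Within cells of 4000 to 8000 UMIs, the knockout ratio of *C1ql1* was 2.72 by *Grik1* and 1.16 by *Chst8* or *Alkal2*. Without cells rich in respiratory transcripts, the control ratio of *Cbln1* by *Grik1* was 0.273. For these the cause was not tested. With at least 100 UMIs per gene, 69 of 9442 genes were called between the libraries, against 393 of 13328, since sparse genes were then left out. A difference of *C1ql2*, *C1ql3*, *Cbln2* or *Cbln4* between the libraries was not detectable at this depth.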
